A study of Mus musculus with 8 samples.

Results

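Of the 49452 genes in the deposited expression table of mouse brown adipose tissue (BAT, the fat depot that burns fuel to make heat), 10 circadian clock genes are described here: Arntl, Clock, Npas2, Per2, Per3, Cry1, Cry2, Nr1d1, Nr1d2 and Dbp. They were picked by gene symbol, and each symbol matched 1 row. The values are FPKM, fragments per kilobase of transcript scaled to the mapped fragments of each library, so a level already divided by transcript length and sequencing depth. Libraries of rRNA-depleted total RNA came from 4 groups of male C57BL/6 mice with 2 libraries each. Mice aged 10 to 12 weeks were either housed at 22 °C (replicates 4 and 7) or kept at 4 °C for 24 h (replicates 2 and 11), the last 4 h of it without food by the methods of the study, which do not say whether the 22 °C mice were fasted too. Mice aged 32 weeks had eaten either a control diet, called normal chow in the labels (CD, replicates 6 and 8), or a high-fat diet (HFD, replicates 2 and 6) for 28 weeks. All animals of the study lived in a cycle of 12 h light and 12 h dark, and the hour at which tissue was taken is not given in the sources used here. Nothing in the labels says whether 1 library is 1 mouse or a pool, so p-values measure the spread between these libraries only.

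The circadian clock is a loop of transcription factors that runs in nearly every cell, brown adipocytes included, with a period close to a day. BMAL1 (the protein of Arntl) pairs with CLOCK or NPAS2 and switches on the Per, Cry, Nr1d and Dbp genes through E-boxes, and the PER and CRY proteins then block that pair. The REV-ERB receptors made by Nr1d1 and Nr1d2 shut Arntl, Npas2 and Cry1 down through ROR elements, while ROR receptors activate through the same elements. DBP activates through D-boxes, which the repressor NFIL3 also binds. As a result Arntl and Npas2 transcripts peak at the opposite time of day to Dbp, Nr1d1 and Per3, and a single sampling hour catches each gene at 1 point of its own wave. In any tissue the hour of collection is therefore a source of differences in these genes.

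To show where these arms of the loop meet the genes, the reference promoter windows were searched for 3 motifs on both strands. The windows run from 250 bases before to 50 bases after each annotated start (RefSeq, GRCm38.p6), and 9 of the 10 members had 12 windows between them; Per2 had none. The ROR element was found in 1 member, Arntl, and in 0.384% of all 32851 windows, or 0.459% of the 27025 genes they belong to. Its last 6 letters are the half-site AGGTCA, which alone stood in 16.3% of windows. The D-box TTANGTAA was found in 1 member, Per3, which holds it at 2 places, against 2.32% of all windows and 2.72% of these genes. The E-box CACGTG was found in 1 member, Cry1, against 7.15% of all windows and 8.09% of these genes. The other members' windows held none of the 3 motifs, which says only that the letters are not in those 300 bases, and Clock and Nr1d2 held the half-site alone. The 30 bases around the Arntl element and the 250 bases upstream of Per3 and Cry1 are shown 5′ to 3′ on the gene's strand, with the ROR element, D-boxes and E-box in capitals. They lie at chr7:113207528-113207557 (plus strand), chr4:151044666-151044915 (minus strand) and chr10:85185055-85185304 (minus strand).
Arntl: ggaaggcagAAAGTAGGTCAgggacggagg
Per3: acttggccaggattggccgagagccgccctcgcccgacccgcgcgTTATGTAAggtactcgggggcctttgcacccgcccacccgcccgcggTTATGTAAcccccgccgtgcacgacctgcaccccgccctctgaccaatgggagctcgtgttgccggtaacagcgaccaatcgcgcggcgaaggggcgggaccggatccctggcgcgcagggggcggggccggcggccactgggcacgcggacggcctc
Cry1: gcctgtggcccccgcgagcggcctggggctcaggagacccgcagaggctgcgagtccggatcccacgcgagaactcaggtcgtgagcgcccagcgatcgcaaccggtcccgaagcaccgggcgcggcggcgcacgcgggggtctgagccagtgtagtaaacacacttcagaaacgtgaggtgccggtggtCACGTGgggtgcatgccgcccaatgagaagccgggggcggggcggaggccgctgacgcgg
The Arntl element occupies bases 27 to 37 after the start, the Per3 D-boxes begin at -205 and -158, counted from the start, and the Cry1 E-box begins at -60. A match is a stretch of letters and not a measured binding site.

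**Figure D1:**
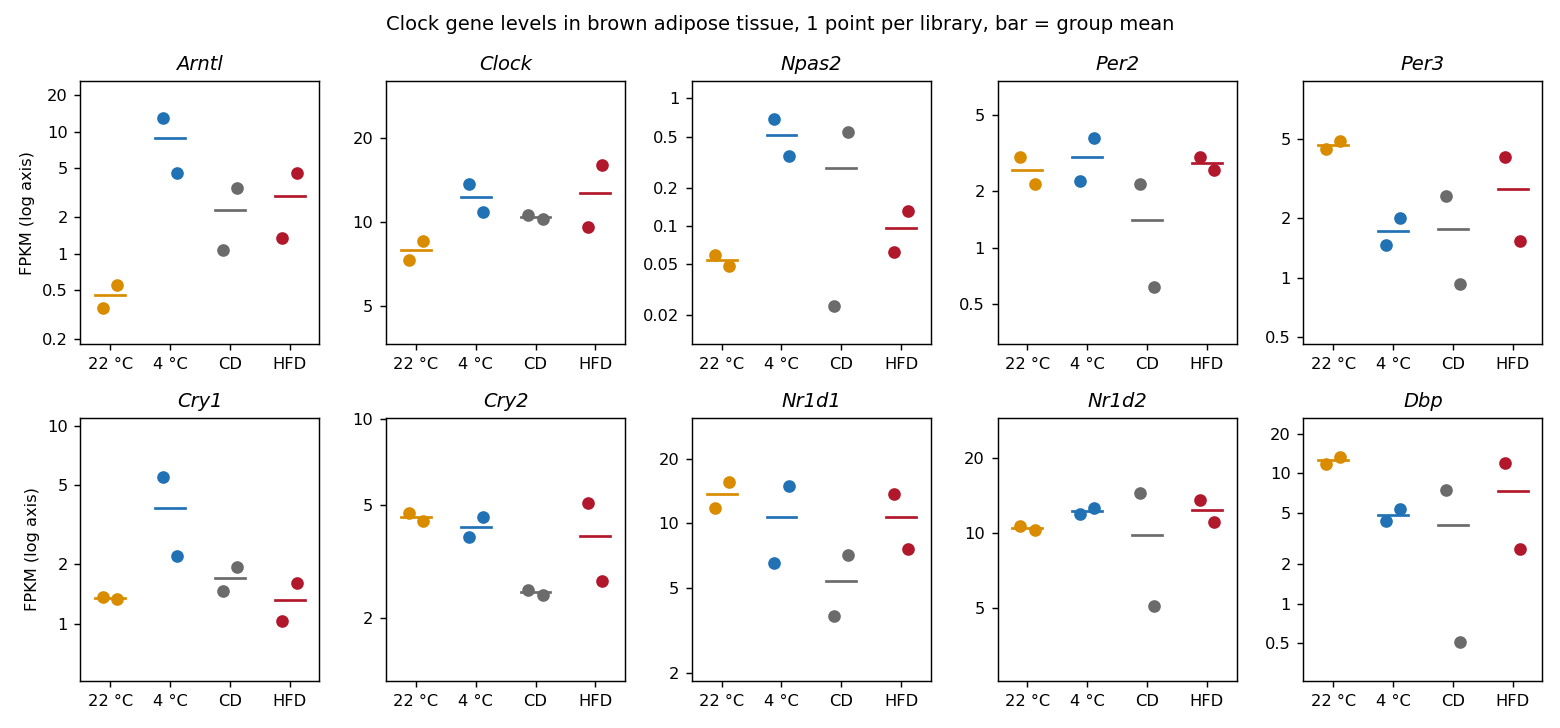
FPKM of the 10 clock genes (log axis, its range differing between panels), 1 point per library and a bar at the mean of the 2 libraries of 22 °C, 4 °C, CD and HFD. By the group means Arntl sits lowest and Dbp highest at 22 °C, and the points of CD and HFD lie far apart for Arntl, Per3 and Dbp.

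The activators are taken first. Arntl, the gene of BMAL1 (ENSMUSG00000055116, chr7:113207465-113314126 on GRCm38, plus strand), was at 0.361 and 0.551 FPKM at 22 °C, at 13.02 and 4.62 at 4 °C, at 1.06 and 3.46 on CD and at 1.35 and 4.62 on HFD. Both 22 °C libraries lay below all 6 others, and 4 °C replicate 11 stood at the level of HFD replicate 6. By means the order was 4 °C (8.82 ± 5.94, SD, n = 2), HFD (2.98 ± 2.31), CD (2.26 ± 1.69) and 22 °C (0.456 ± 0.135), and the neighbours 4 °C and HFD, and HFD and CD, did not differ beyond their spread. Clock, the partner of BMAL1 (chr5:76209868-76304792, minus strand), was at 7.33 and 8.55 FPKM at 22 °C, 13.7 and 10.8 at 4 °C, 10.6 and 10.3 on CD and 9.56 and 15.9 on HFD. It was the steadiest of the activators, and its 22 °C libraries were again the lowest of the 8. Npas2, which can take the place of CLOCK (chr1:39193731-39363236, plus strand), was at 0.0592 and 0.0486 FPKM at 22 °C, 0.684 and 0.353 at 4 °C, 0.0237 and 0.547 on CD and 0.0630 and 0.131 on HFD. These are low levels, resting on about 11.5 fragments in CD replicate 6 and about 251 in 4 °C replicate 2, and the CD replicates differed 23.1-fold.

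Among the repressors, Per3 (chr4:151003652-151044665, minus strand), a PER protein gene, was at 4.43 and 4.88 FPKM at 22 °C, 1.46 and 1.99 at 4 °C, 2.57 and 0.924 on CD and 4.05 and 1.52 on HFD. The 22 °C libraries were the highest of the 8 and the groups at 22 °C and 4 °C did not overlap. Per3 lies inside Camta1, which is on the same strand. Per2 (chr1:91415982-91459324, minus strand), another PER protein gene, was at 3.004 and 2.17 FPKM at 22 °C, 2.24 and 3.80 at 4 °C, 2.18 and 0.616 on CD and 3.01 and 2.56 on HFD. Only CD replicate 8 stood apart from the other 7 libraries. Cry1 (chr10:85131700-85185064, minus strand), a cryptochrome repressor, was at 1.36 and 1.34 FPKM at 22 °C, 5.50 and 2.21 at 4 °C, 1.47 and 1.95 on CD and 1.03 and 1.61 on HFD. Both 4 °C libraries were above all 6 others, by little for replicate 11. Cry2 (chr2:92403646-92434043, minus strand), the other cryptochrome, was at 4.69 and 4.40 FPKM at 22 °C, 3.84 and 4.53 at 4 °C, 2.51 and 2.41 on CD and 5.05 and 2.69 on HFD. Its temperature groups overlapped, and its lowest levels were in the CD libraries.

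The nuclear receptor Nr1d1 (REV-ERBα, chr11:98767932-98775333, minus strand) was at 11.8 and 15.5 FPKM at 22 °C, 6.55 and 14.9 at 4 °C, 3.68 and 7.11 on CD and 13.7 and 7.61 on HFD. Its 4 °C replicates differed 2.28-fold, so that replicate 11 stood at the 22 °C level and replicate 2 below it. Nr1d2 (REV-ERBβ, chr14:18204054-18239127, minus strand) was at 10.7 and 10.2 FPKM at 22 °C, 11.9 and 12.6 at 4 °C, 14.5 and 5.10 on CD and 13.6 and 11.04 on HFD. As for Per2, CD replicate 8 was the lowest library. Dbp (chr7:45705088-45710203, plus strand), the output factor that acts on D-boxes, was at 11.9 and 13.3 FPKM at 22 °C, 4.31 and 5.31 at 4 °C, 7.45 and 0.511 on CD and 12.01 and 2.64 on HFD. The CD replicates differed 14.6-fold and the HFD replicates 4.56-fold, wider than the 2.62-fold between the means at 22 °C and 4 °C. Nr1d1 and Dbp overlap Thra and Sphk2 on the opposite strand, and Cry2, Arntl and Npas2 overlap D930015M05Rik, Gm45355 and Gm20428 in the same way. Clock overlaps Ube2n-ps1 and Gm43658 on its own strand, as Npas2 does Gm3617. Whether the FPKM used strand is not given in the sources used here, so reads of these neighbours may not be told apart.

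Next, the groups at 4 °C and 22 °C were compared to see which clock genes differed after a day of cold. At 4 °C the mean of Arntl was 19.3-fold that at 22 °C, of Npas2 9.62-fold, of Cry1 2.85-fold and of Clock 1.54-fold, while Per3 was 2.70-fold and Dbp 2.62-fold lower. On the log2(FPKM + 1) scale, which understates changes of low genes such as Npas2, Arntl differed by 2.61 (SE 0.439, 95% interval 1.505 to 3.72, limma adjusted p = 0.0539). Dbp differed by -1.23 (SE 0.196, interval -1.72 to -0.74, limma adjusted p = 0.0517) and Per3 by -1.06 (SE 0.191, interval -1.54 to -0.58, limma adjusted p = 0.0588). So these 3 genes missed the threshold of an adjusted p of 0.05 by little, and 0 of the 10 members passed it, against 1.44% of all 17470 genes tested. At an unadjusted p under 0.05 limma gave Arntl, Clock, Per3, Cry1 and Dbp, 5 of the 9 members other than Npas2, beside a background of 24.5%. Npas2 also had such a p, but it passed the filter of 0.1 FPKM only through the 4 °C libraries, where it was high, and is left out of that count. The call on Arntl, Dbp and Per3 turned on the setting. Of 16 settings Dbp passed in 6 (limma adjusted p 0.0156 to 0.459) and Per3 in 5 (0.0210 to 0.189). Arntl passed in some settings and missed in others, at 0.0151 to 0.182 over those with 2 libraries a group. Arntl differed by 1.95 without 4 °C replicate 2 and by 3.27 without replicate 11. Without 22 °C replicate 4 it differed by 2.52, and without replicate 7 by 2.71. Each of these fits leaves 1 library in a group and so holds no spread of that group, and its p-value is not given.

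Groups at 4 °C and 22 °C did not overlap in Arntl, Clock, Cry1 and Nr1d2, 4 of the 9 members other than Npas2, that were higher (37.9% of all genes) and in 2 that were lower (Per3 and Dbp; 20.6% of all genes). Nr1d2 differed by 0.21, or by -0.05 after median centring. Cry1 differed by 0.96 (SE 0.350, limma adjusted p = 0.180), and passed the threshold in no setting with 2 libraries a group. Without 4 °C replicate 11 it differed by 1.47 and without 4 °C replicate 2 by 0.45, each with 1 library left at 4 °C. Clock differed by 0.56 (limma adjusted p = 0.184) and Npas2, whose test the filter voids, by 0.52. Nr1d1, Cry2 and Per2 overlapped between the groups, with differences of -0.41, -0.10 and 0.15, and intervals of -1.39 to 0.58, -0.56 to 0.36 and -0.51 to 0.80. Per2 changed sign after median centring (-0.11), and Nr1d1 did so without 4 °C replicate 2 (0.13). The median difference over the 9 members other than Npas2 was 0.15, beside 0.07 over all genes tested.

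**Figure D2:**
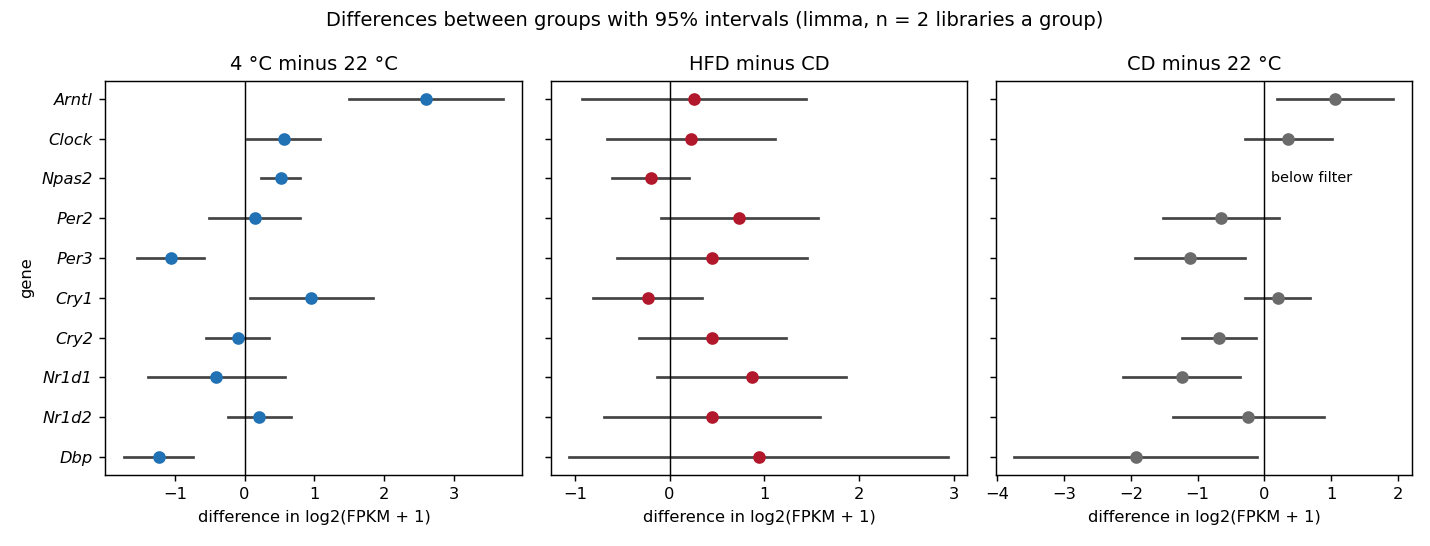
Difference between group means in log2(FPKM + 1) with its 95% interval for each clock gene (limma, 2 libraries a group); horizontal axes differ between panels. Intervals exclude 0 for 6 genes in the cold panel, among them Npas2, which was tested only through its 4 °C libraries, and for none in the diet panel, and no gene passed the adjusted threshold in any panel.

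The diet comparison asked how the same genes stood after 28 weeks of HFD. None of the 10 members passed the threshold, against 0.0684% of 17535 genes, and limma gave 0 members at an unadjusted p under 0.05, against 14.4% of all genes. Per2, Nr1d1 and Cry2 were higher in both HFD libraries than in both CD libraries (39.9% of all genes were), with differences of 0.74 (SE 0.354, limma adjusted p = 0.397), 0.87 (SE 0.425, limma adjusted p = 0.412) and 0.45 (SE 0.331, limma adjusted p = 0.586). No member was lower without overlap, as 5.8% of all genes were. Arntl differed by 0.26, with a wide interval of -0.93 to 1.45, and Dbp by 0.94, with an interval of -1.06 to 2.95. These intervals span higher and lower levels alike, so the libraries bounded neither difference closely. The median difference was 0.45 over the members and 0.18 over all genes.

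Single libraries moved the diet values. Left out in turn, libraries moved Per2 between 0.25 and 1.23, Nr1d1 between 0.47 and 1.26 and Cry2 between 0.09 and 0.81. Without CD replicate 6, Dbp differed by 2.19 and Per2 by 1.23. CD replicate 8, the lowest library for both genes, is then the only CD library, so no spread between CD libraries enters that fit. That setting keeps the 3 libraries whose identifiers in the labels share 1 prefix, since CD replicate 6 carries the prefix of the temperature groups. Without CD replicate 8, Dbp differed by -0.30, the opposite direction, and Nr1d2 by -0.22. Arntl differed by -0.30 without CD replicate 6 by -0.37 without HFD replicate 6, and by 0.81 and 0.89 without CD replicate 8 and HFD replicate 2. The direction of Dbp and Arntl under HFD therefore could not be read from these 4 libraries.

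The size of the differences between mates was the main feature of the diet groups. In CD replicate 8 and HFD replicate 6 Arntl was higher and Dbp and Per3 were lower than in the mate of the same group. Expressed as log2(FPKM + 1) of Arntl minus that of Dbp, the 22 °C libraries stood at -3.24 and -3.21 and the 4 °C libraries at 1.40 and -0.17. CD libraries stood at -2.03 (replicate 6) and 1.56 (replicate 8), and HFD libraries at -2.47 (replicate 2) and 0.63 (replicate 6). Hence the gap between mates was 3.59 on CD and 3.10 on HFD, beside 1.57 at 4 °C and 0.03 at 22 °C. A broader score, which holds Arntl and Dbp too and so is not independent of the first, was the mean of Arntl, Clock and Npas2 minus the mean of Nr1d1, Nr1d2, Dbp, Per2 and Per3, and came to -1.88 and -1.80 for the 22 °C libraries, 0.41 and -0.69 for those at 4 °C, -1.01 and 0.52 for CD and -1.58 and -0.10 for HFD. In each of the 4 groups the mate with more Arntl had less Per2, Cry2 and Nr1d2, in 3 of 4 it had less Per3 and Dbp, and in 2 of 4 less Nr1d1. These are descriptions of 8 libraries with no test.

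**Figure D3:**
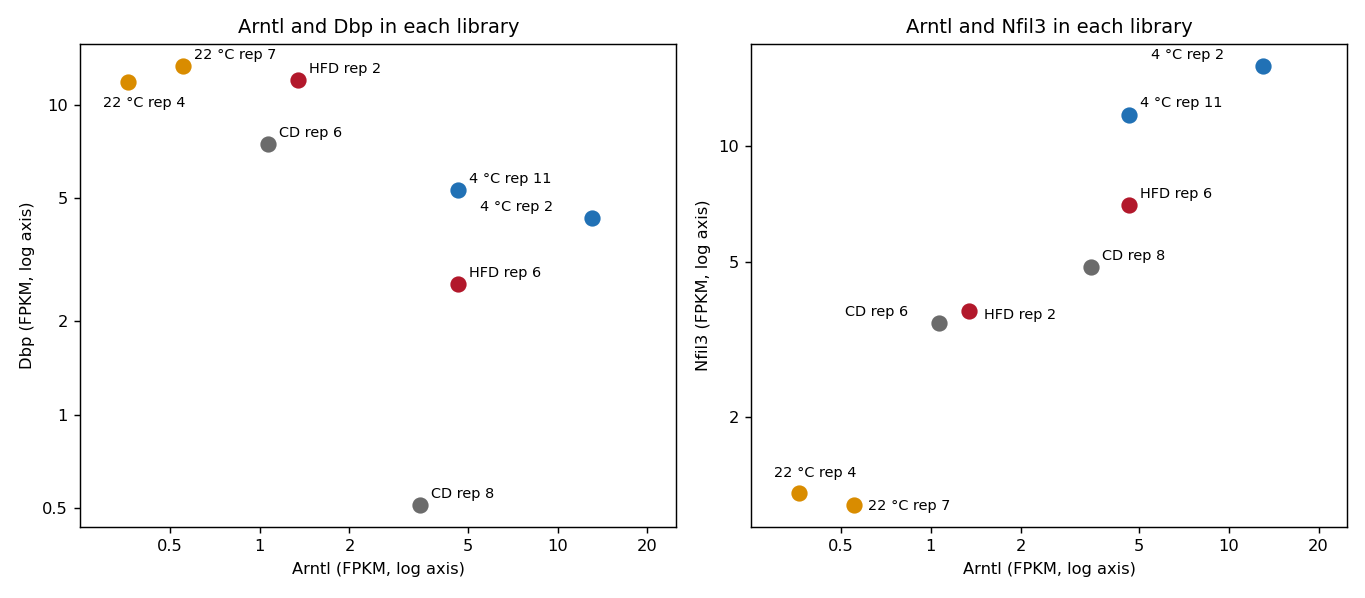
Each point is 1 library, coloured by group; Arntl in FPKM is on the horizontal log axis, and Dbp (left) or Nfil3 (right) in FPKM is on the vertical log axis. CD replicate 8 (Dbp 0.511) and HFD replicate 6 (Dbp 2.64) lie apart from their mates, and the 4 °C libraries hold the highest Nfil3, 16.1 and 12.03.

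The hour of collection, which could differ between libraries, groups and the 2 experiments, cannot be told apart from temperature, diet or age here, nor can the fast of the 4 °C mice from the cold. To give the size of differences between groups that had neither cold nor HFD, the CD and 22 °C groups were set side by side, which is not a comparison of the study and shares libraries with the others. Arntl was 4.96-fold higher on CD, Dbp 3.16-fold, Per3 2.67-fold and Nr1d1 2.53-fold lower. On the log2 scale the differences were 1.06 for Arntl, -1.93 for Dbp, -1.11 for Per3 and -1.24 for Nr1d1, with limma adjusted p between 0.306 and 0.399. No member passed the threshold, as no gene of 17329 did (0%), and 5 of the 9 members tested had an unadjusted p under 0.05 by limma, against 12% of all genes. Groups did not overlap in 3 members that were higher on CD (Arntl, Clock and Cry1; 12.2% of all genes) and in 4 that were lower (Per3, Cry2, Nr1d1 and Dbp; 31% of all genes). Single CD libraries moved these values: without replicate 8 Dbp differed by -0.68, Per3 by -0.66, Arntl by 0.51 and Nr1d1 by -1.63, and without replicate 6 by -3.17, -1.56, 1.62 and -0.84. Between 4 °C and 22 °C, Dbp differed by -1.23, Per3 by -1.06, Arntl by 2.61 and Nr1d1 by -0.41. With the library type described further on as a covariate, Arntl, Per3, Nr1d1 and Dbp passed (limma adjusted p 0.000146, 0.0101, 0.0158 and 3.17e-06), in a fit that called 532 of 17329 genes, but with the same covariate over all 8 libraries none of them did (0.324, 0.186, 0.117 and 0.254).

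Whether the cold difference differed from the diet difference was tested over all 8 libraries, the 2 comparisons sharing none. The gap was 2.35 for Arntl (interval 0.43 to 4.27, limma adjusted p = 0.190), -1.51 for Per3 (limma adjusted p = 0.211) and -2.18 for Dbp (limma adjusted p = 0.379). No member passed, against 1.04% of 18894 genes, so the cold and diet differences of these genes were not shown to differ. By limma 4 members had an unadjusted p under 0.05 (Arntl, Per3, Cry1 and Npas2), against 18.4% of all genes. Npas2 is among them although the filter voids its cold test.

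Beyond the 10 members, 26 further genes of the clock and its outputs were followed, of which 24 were tested in the cold and 25 under HFD. Under HFD 0 of 25 passed the threshold, against 0.0684% of all genes. In the cold 1 of 24 did, against 1.44% of all genes. It was Nfil3, the repressor that competes with DBP for D-boxes, at 1.27 and 1.19 FPKM at 22 °C, 16.1 and 12.03 at 4 °C, 3.48 and 4.87 on CD and 3.74 and 7.03 on HFD. Nfil3 rose 11.5-fold by means in the cold, or by 2.74 in log2(FPKM + 1) (SE 0.209, limma adjusted p = 0.0196). Of the settings with 2 libraries a group, Nfil3 missed the threshold only without the filter (limma adjusted p = 0.130) and without the intensity trend (0.0601). It also missed without 4 °C replicate 2, which leaves 1 library at 4 °C. Its cold difference exceeded its diet difference by 2.48 (limma adjusted p = 0.0489, or 0.0229 to 0.0489 over 4 settings). CD libraries lay above both 22 °C libraries in Nfil3 as well, by 1.204 (limma adjusted p = 0.240).

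**Figure D4:**
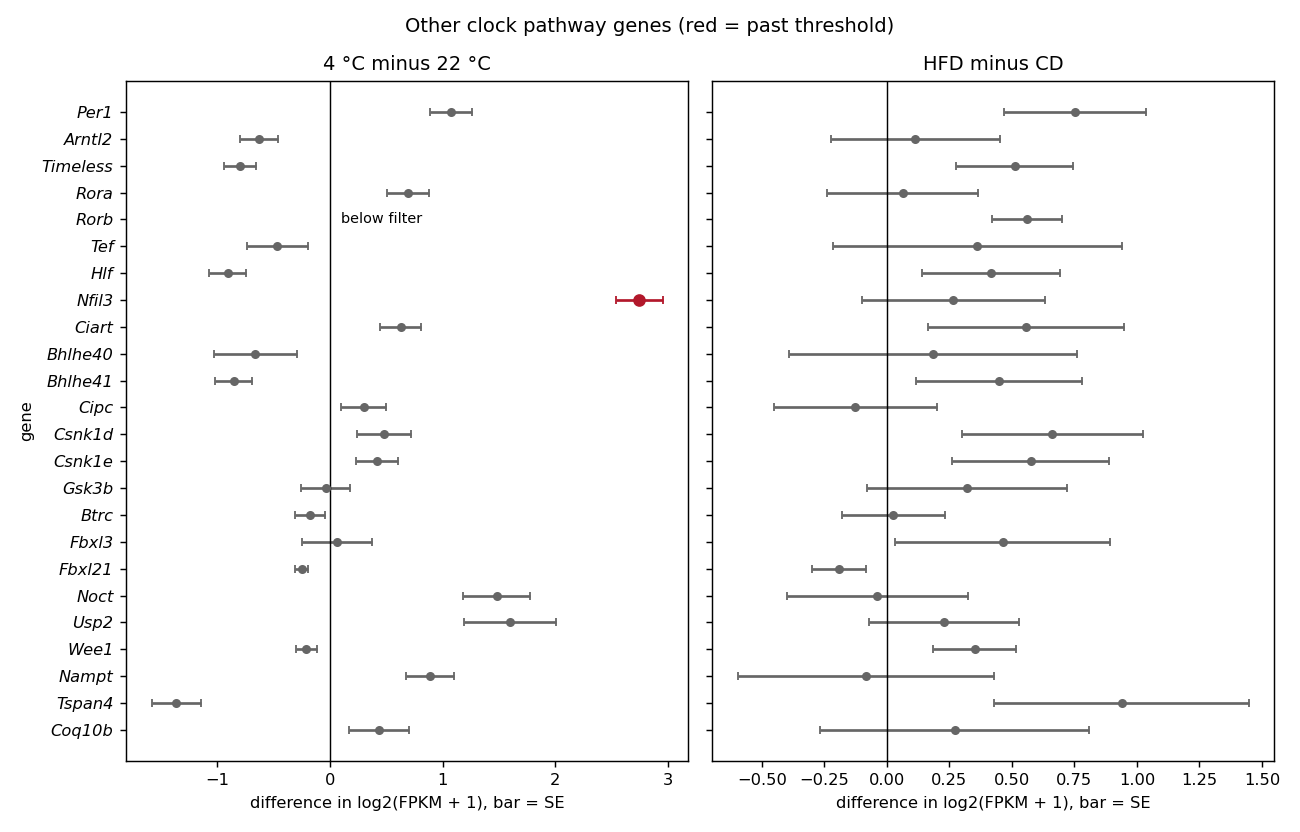
Difference in log2(FPKM + 1) with its SE for the other clock pathway genes reported here, for 4 °C minus 22 °C and HFD minus CD (horizontal axes differ). Nfil3 at 2.74 in the cold is the only gene past the threshold, and no gene shown passed it under HFD.

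Of the other listed genes, those with the largest cold differences were outputs of the clock. Usp2, a deubiquitinase gene, was at 3.09 and 3.67 FPKM at 22 °C and 19.01 and 7.75 at 4 °C (difference 1.60, limma adjusted p = 0.0980). Noct, the gene of the phosphatase nocturnin, was at 10.52 and 17.998 FPKM at 22 °C and 42.8 and 37.9 at 4 °C (difference 1.48, limma adjusted p = 0.0648). Tspan4, a tetraspanin gene, was at 22.9 and 18.1 FPKM at 22 °C and 8.04 and 6.66 at 4 °C (difference -1.36, limma adjusted p = 0.0517). None of these 3, named for their large differences, passed the threshold. Counted at an unadjusted p under 0.05 by limma, 13 of the 24 listed genes differed in the cold and 3 of 25 under HFD, beside the 24.5% and 14.4% over all genes given above. The list was chosen with earlier results of these data known, so nothing is read from these counts. Among the 13 is Fbxl21 (0.262 and 0.309 FPKM at 22 °C, 0.0543 and 0.109 at 4 °C). Among the 3 is Rorb (0.0866 and 0.229 on CD, 0.528 and 0.904 on HFD). Both passed the filter of 0.1 FPKM through the group where they were high. The median difference of the list was 0.01 in the cold and 0.32 under HFD, against 0.07 and 0.18 over all genes.

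Per1 and Hlf were picked out after their cold values were seen. Per1, the paralog of Per2 and Per3, was at 4.74 and 3.96 FPKM at 22 °C and 10.8 and 9.78 at 4 °C (difference 1.08, limma adjusted p = 0.0565), so its level was higher where that of Per3 was lower. Hlf, a PAR bZIP factor like DBP, was at 3.21 and 3.67 FPKM at 22 °C and 1.34 and 1.40 at 4 °C (difference -0.91, limma adjusted p = 0.0601). Per1 differed by 0.75 under HFD (limma adjusted p = 0.298) and Tspan4 by 0.94 (0.456). Tspan4 came to 1.68 without CD replicate 6 and to 0.20 without CD replicate 8, each with 1 CD library left. Between CD and 22 °C, Tspan4 (-1.43, limma adjusted p = 0.373), Nfil3 (above) and Ciart, a repressor of the BMAL1 pair (-0.98, limma adjusted p = 0.366), differed most.

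The patterns closest to Arntl and Dbp over the 8 libraries were looked up among 10868 autosomal genes, members left out, by Pearson r of log2(FPKM + 1). Closest to Arntl were Lrrc58 (0.970), Ipo13 (0.962), Twf2 (0.961), Dock5 (0.953) and Ablim1 (0.952). Lrrc58 was at 18.2 and 18.5 FPKM at 22 °C, 45.8 and 34.5 at 4 °C, 24.1 and 32.5 on CD and 26.4 and 39.2 on HFD, low in both 22 °C libraries and highest in 4 °C replicate 2 as Arntl was. Closest to Dbp was Tef (0.950), a PAR bZIP factor of the same family, at 33.5 and 34.9 FPKM at 22 °C, 19.5 and 30.8 at 4 °C, 33.0 and 10.7 on CD and 32.1 and 18.9 on HFD. Emc9 (0.887), Scpep1 (0.864), Odf3l1 (0.864) and Fzd8 (0.861) came next. Between members, r was 0.942 for Per3 with Dbp and -0.613 for Arntl with Dbp. The 8 points share their groups, depth and library types, and with so many genes searched a high r is a description only.

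Other properties of the libraries moved with some of these values. Libraries had 23543 to 32686 genes above 0, and 1 fragment on a transcript of 2000 bases was worth 0.0044 to 0.00602 FPKM, and after Npas2 the thinnest value, Dbp in CD replicate 8, rested on about 81.4 fragments. Replicates 22 °C 4, 4 °C 11, CD 8 and HFD 2 had over 100 FPKM of the satellite-like gene Gm10800 and the other 4 had less, so by this cut each group held 1 library of each type. The place of 4 °C replicate 11 is unsure. It had 447 FPKM, against 6464 in 22 °C replicate 4, 9038 in CD replicate 8 and 15726 in HFD replicate 2. Its 26285 genes above 0 compare with 31741 to 32686 in those libraries. Values by library type in the cold, and fits with it as a covariate, rest on that cut. Within the libraries high in it, Arntl differed by 2.05 and Dbp by -1.03 between 4 °C and 22 °C, and within the others by 3.18 and -1.43. Under HFD, Arntl differed by -0.93 in the first type and 1.44 in the second, and Dbp by 3.11 and -1.22, so their direction turned with the type (1 library a group, no test). Nr1d1 (0.85 and 0.88), Per2 (1.31 and 0.16) and Cry2 (0.83 and 0.07) kept their sign, and every other member turned. With library type as a covariate, Nr1d1 under HFD had limma adjusted p = 0.0172, or 0.144 over all 8 libraries. Its difference of 0.87 stayed below the threshold of 1. X- and Y-linked genes were listed at 0 in both 22 °C libraries and in CD replicate 6, and the fits used autosomes for that reason.

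As for other cells in the tissue, 12 of 12 brown adipocyte markers were present and summed to 7572 to 8075 FPKM at 22 °C, 15970 to 18620 at 4 °C, 9097 to 16280 on CD and 9770 to 14090 on HFD. That list holds Fabp4 and Adipoq, which the study treats as markers of fat in general, so its sum does not measure brown adipocytes alone. Fabp4 gave 3769 FPKM of the sum in 22 °C replicate 4 and 7595.5 in 4 °C replicate 2. Members went both ways. Ucp1 was at 699 and 1426.5 FPKM at 22 °C and 6461.5 and 5371 at 4 °C. Adipoq was at 717 and 491 at 22 °C and 395 and 302 at 4 °C, and Prdm16 was lower at 4 °C too. Skeletal muscle markers (11 of 12 listed were in the table, none at 0) summed to 109 to 531 FPKM at 22 °C, 1916 to 4518 at 4 °C, 573 to 1465 on CD and 16.4 to 177 on HFD. Muscle markers were thus highest in the cold libraries, and the mate with the higher muscle sum had more Arntl at 4 °C and on CD and less at 22 °C and on HFD. HFD replicate 6, with the lowest muscle sum of all 8 libraries (16.4 FPKM), held Arntl at 4.62 FPKM, the level of 4 °C replicate 11. Macrophage markers (6 of 6) summed to 41.7 to 58.2 FPKM at 22 °C, 43.8 to 99.2 at 4 °C, 36.5 to 105 on CD and 179 to 230 on HFD. Lymphoid markers (7 of 7) stayed between 0.627 and 1.37 FPKM. Erythroid markers (3 of 5 in the table) summed to 28.7 to 113 FPKM in the temperature groups and 99.6 to 393 in the diet groups. White adipocyte markers (5 of 5) summed to 54.9 to 96.0 FPKM at 22 °C, 114 to 233 at 4 °C, 9.54 to 17.1 on CD and 76.6 to 103 on HFD, with the defining markers Tcf21 and Hoxc9 listed at 0 in 5 and 3 libraries. Within that list Retn was at 87.8 and 50.2 FPKM at 22 °C and 231 and 112 at 4 °C, whereas Lep was at 7.39 and 3.72 and then at 0.769 and 0.175. The part of any of these lists in the clock gene values was not tested. In bulk tissue, fewer cells of a type and less RNA per cell cannot be told apart.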

How the data were processed

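RNA-seq was read for 8 libraries of BAT, 2 in each of 4 groups. The deposited values are FPKM that the authors computed with Cufflinks (2.2.1 in their processing notes) from reads aligned to GRCm38.p5 with TopHat2 2.0.10 and Ensembl release 87 genes, from rRNA-depleted directional libraries. Columns of the authors' own fold changes and p-values were not used. In genes with 1 transcript of 1 exon, 97.9 to 98.8% of low FPKM were whole multiples of a step (within 0.1 fragment). The step was picked to make that share highest. From it approximate fragment numbers of the clock genes were derived with each gene's longest transcript, although each has more than 1. That share therefore does not check these numbers, and they cover counting error only.

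Here log2(FPKM + 1) of autosomal genes with at least 0.1 FPKM in 2 or more libraries of a fit was tested with limma 3.58.1 in R 4.3.3 (empirical Bayes with an intensity trend, two-sided), with Benjamini-Hochberg adjustment over all genes of a comparison. The threshold was an adjusted p under 0.05 with a log2 difference of at least 1 in either direction. The script was tested on simulated data. Intervals are 95%. DESeq2, used by the authors on counts, was not run, as no counts were used here.

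The members, the list of other clock genes, the markers and the tests were chosen with earlier results of these data known. All members are named. Of the other clock genes, those past the threshold are named, and otherwise the 3 with the largest absolute difference per comparison. Hlf, Fbxl21 and Rorb are named besides, for the reasons given where they occur. The 5 genes most like Arntl and the 5 most like Dbp had a mean of at least 1 FPKM. Alternatives were other pseudocounts, filters, scalings, covariates, gene sets and each library left out. A listed item is not reported here.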

Additional observations from a re-analysis of the deposited data

How the results depend on the processing

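Among the 10 clock genes, the count past the threshold in the cold was 0 as reported and 2 with a pseudocount of 0.1 FPKM. It was 3 with a filter of 1 FPKM, median centring, quantile normalization, library type as a covariate, or X, Y and mitochondrial genes kept. With library type as a covariate over all 8 libraries it was 1. Fits with a library left out assume that the lone library of a group varies like the others, so their counts are not given. Calls over all genes rose as well, from 252 of 17470 to 475 (pseudocount), 529 of 10937 (filter), 757, 489, 859 and 920 in the settings with 3 members, and 869 with the covariate over all 8 libraries. The count of other clock genes past the threshold in the cold was 1 as reported and 7 after median centring. With all 8 libraries in the fit it was 3 (439 calls over all genes). It was 0 with no filter or with no intensity trend, and 1 to 5 in the other settings with 2 libraries a group. Under HFD the members' count was 0 in every setting with 2 libraries a group. That of the other clock genes, 0 as reported, was 1 after median centring, where calls over all genes rose from 12 to 45. It was also 1 with library type as a covariate (744 calls over all genes, or 439 over all 8 libraries). The libraries of 1 identifier prefix leave 1 CD library, so counts of that setting are not given either. Between CD and 22 °C the members' count was 4 with library type as a covariate and 0 with that covariate over all 8 libraries. After median centring and quantile normalization, Per2 in the cold came to -0.11 and -0.0146, Nr1d2 in the cold to -0.0488 and -0.13, Arntl under HFD to -0.10 and -0.14, and Clock under HFD to -0.13 and -0.0878, each with the sign turned; the median of all genes was 0.07 in the cold and 0.18 under HFD as reported, and -0.19 and -0.18 once centred. With the libraries of 1 prefix, Arntl under HFD came to -0.30. With each library left out, Per2 (-0.14 to 0.43) and Nr1d1 (-0.94 to 0.13) turned sign in the cold, as did Arntl (-0.37 to 0.89), Clock (-0.12 to 0.56), Per3 (-0.055 to 0.95), Nr1d2 (-0.22 to 1.12) and Dbp (-0.30 to 2.19) under HFD, and Nr1d2 (-0.91 to 0.43) between CD and 22 °C. The cause was not tested. In every setting run Arntl, Clock and Cry1 stayed higher and Per3 and Dbp lower at 4 °C. Cry2 kept its sign too, but at -0.36 to -0.0042, and its groups overlapped. Libraries could not be paired by replicate number. The replicates at 22 °C are numbered differently from those at 4 °C, and only number 6 occurs in both diet groups. The covariate for library type, whose counts are given above, matched libraries across groups by type, which is not known to pair animals. With 2 libraries a group, a permutation of labels could not reach a p of 0.05.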
